A study of Homo sapiens with 2 samples.

Results

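The voltage-dependent anion channels (VDACs) and the adenine nucleotide carriers were examined in A375SM, a highly metastatic human melanoma cell line. They comprise 6 genes (VDAC1, VDAC2, VDAC3, SLC25A4, SLC25A5 and SLC25A6) of 19412 on the array, read by 10 of the 25650 probes that name 1 gene. All probes annotated to these symbols were taken. The set was chosen by the measured fall of VDAC1 between these lines, together with its relatives, so its differences between the lines are given as a description. The line labelled NFAT1-shRNA carries a lentiviral short hairpin RNA (shRNA) against NFAT1, the product of the gene NFATC2 and a transcription factor that calcium signals activate. The line labelled NT-shRNA carries a non-targeting shRNA by the same vector type. Both were sorted for the upper 50% of cells by GFP fluorescence and grown in the same medium. Each line is a transduced population of 1 parental cell line, and no hairpin sequence is printed, since none of the sources used here gives it. According to the design text 3 biological replicates were made of each, but the deposited table holds 1 combined intensity and 1 error for each probe and line, and the replicates' own spread cannot be had from it. Below, ± gives that deposited error, whose kind is not stated.

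VDACs are beta-barrel pores through which ATP, ADP and other small metabolites cross the mitochondrial outer membrane. The adenine nucleotide carriers, also called ADP/ATP translocases, exchange ADP for ATP across the inner membrane. VDAC1 is the form best known as a docking site for hexokinase on mitochondria, VDAC2 is known for holding the pro-death protein BAK, and VDAC3 is the least studied of the family. Among the carriers, SLC25A4 (ANT1) is the form of heart and skeletal muscle, SLC25A5 (ANT2) is typical of proliferating cells, and SLC25A6 (ANT3) is widely expressed.

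Of the 6 genes, VDAC1 was lower in the NFAT1-shRNA line than in the NT-shRNA line, and no other member passed the threshold in either direction. In the authors' deposited table VDAC1 stood 5.33-fold higher in the NT-shRNA line (95% interval from the deposited errors 2.38 to 11.9). The other log2 ratios, NFAT1-shRNA over NT-shRNA, lay between -0.31 for SLC25A4 and 0.40 for SLC25A5 in the authors' deposited table. VDAC2 at 0.24 and VDAC3 at 0.35 were positive there, on the opposite side of 0 from VDAC1. By sign, 4 members were positive and 2 negative. A gene was called when the authors' p-value, adjusted by Benjamini-Hochberg over the 9516 genes with a ratio, was under 0.05. The adjusted p-values and the intervals were computed from that table and are not part of it. That rule called 7.55% of all genes, 4.19% lower and 3.35% higher in the NFAT1-shRNA line, and nothing is read from the 1 of 6 members called, since the set was built around it. At an unadjusted p under 0.05, 2 members were lower and 2 higher, where the authors' deposited table gave 19.2% of all genes in either direction. The median log2 ratio was 0.12 over the members and -0.02 over all genes.

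The labels were checked on these arrays before directions were drawn. NFATC2 read 279.2 ± 15.7 in NFAT1-shRNA cells, against 199.4 ± 15.2 in NT-shRNA cells on its brighter probe (log2 ratio 0.12 in the authors' deposited table, 0.819 as the p adjusted here). Its other probe was not detected in either line, at 41.6 ± 9.55 in NFAT1-shRNA cells, against 57.8 ± 10.6 in NT-shRNA cells (log2 ratio -0.23 in the authors' deposited table). On the detected probe the targeted transcript was therefore not lower in the library labelled NFAT1-shRNA, and each direction here is that between lines as labelled. Of 8 melanocyte lineage markers, 7 were detected (detection p-value under 0.01) in each line, and none of 5 leukocyte and 4 endothelial markers was. The summed intensity of the melanocyte markers differed, at 3528 in NFAT1-shRNA cells, against 2303 in NT-shRNA cells, before centring. Of 5 keratinocyte markers 2 were detected in each line, and of 6 fibroblast markers 1 in NFAT1-shRNA cells, against 2 in NT-shRNA cells. The summed intensity of the fibroblast markers was 8258 in NFAT1-shRNA cells, against 1625 in NT-shRNA cells, of which DCN gave 6267 ± 7799 in NFAT1-shRNA cells, against 1.39 ± 4.07 in NT-shRNA cells, and was not detected in either line. Over the 2 fibroblast markers detected in either line the sums were 1891 in NFAT1-shRNA cells, against 1555 in NT-shRNA cells. These 2 went opposite ways. LUM read 1888 in NFAT1-shRNA cells, against 1472 in NT-shRNA cells. COL1A2 read 3.34 in NFAT1-shRNA cells, where it was not detected, against 82.7 in NT-shRNA cells. The part of all these markers in the differences below was not tested.

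The promoter windows are shown for VDAC1, which carries the largest difference, and for SLC25A4 and SLC25A5, the carriers whose ratios have opposite signs. They are RefSeq windows of GRCh38.p14, from 250 bases before to 50 bases after a transcript start, printed 5′ to 3′ on the gene's strand. RefSeq places VDAC1 at chr5:133971871-134114540, with 4 such windows, and the pair that does not overlap and holds a match is given. Capitals mark matches on either strand to GGAAA, the core letters bound by NFAT proteins, and to TATAA, the core of the TATA box.
VDAC1 window A (minus strand), chr5:134004485-134004784: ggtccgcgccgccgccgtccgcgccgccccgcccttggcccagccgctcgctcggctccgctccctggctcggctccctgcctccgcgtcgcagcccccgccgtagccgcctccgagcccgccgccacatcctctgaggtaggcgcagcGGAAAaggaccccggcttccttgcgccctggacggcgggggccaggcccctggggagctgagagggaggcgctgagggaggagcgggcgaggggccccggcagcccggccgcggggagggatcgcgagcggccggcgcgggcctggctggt
VDAC1 window B (minus strand), chr5:134004926-134005225: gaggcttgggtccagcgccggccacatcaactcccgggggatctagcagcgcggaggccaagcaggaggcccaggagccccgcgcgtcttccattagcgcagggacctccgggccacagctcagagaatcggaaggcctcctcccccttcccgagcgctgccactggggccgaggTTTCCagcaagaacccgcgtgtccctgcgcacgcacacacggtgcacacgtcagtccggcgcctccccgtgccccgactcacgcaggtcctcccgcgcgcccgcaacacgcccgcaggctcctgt
SLC25A4 (plus strand), chr4:185143016-185143315: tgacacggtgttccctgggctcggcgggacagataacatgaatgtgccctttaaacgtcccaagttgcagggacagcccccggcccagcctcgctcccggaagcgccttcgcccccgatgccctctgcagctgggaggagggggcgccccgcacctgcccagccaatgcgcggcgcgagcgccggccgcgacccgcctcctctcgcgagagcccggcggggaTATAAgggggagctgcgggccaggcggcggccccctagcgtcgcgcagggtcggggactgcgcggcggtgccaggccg
SLC25A5 (plus strand), chrX:119468194-119468493: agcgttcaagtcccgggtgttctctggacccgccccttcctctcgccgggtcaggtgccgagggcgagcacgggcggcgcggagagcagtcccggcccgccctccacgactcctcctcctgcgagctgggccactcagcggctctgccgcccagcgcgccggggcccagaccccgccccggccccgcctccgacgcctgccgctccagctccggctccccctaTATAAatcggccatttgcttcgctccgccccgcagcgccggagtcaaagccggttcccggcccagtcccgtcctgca

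VDAC1 windows A and B each held 1 match to GGAAA and the remaining VDAC1 windows held none. These letters occurred in 61.2% of all 35087 windows, so a match in a window is common. The letters also occurred once in 1 of the 2 VDAC2 windows, and not in those of SLC25A4, SLC25A5 and SLC25A6. Both carrier windows held TATAA on the gene's strand, its first base 28 bases before the start in SLC25A4 and 27 bases before it in SLC25A5, against 20.4% of all windows with these letters on either strand. No VDAC1, VDAC2 or SLC25A6 window held TATAA. The GC box letters GGGCGG, found in 44.9% of all windows, occurred 6 times in the SLC25A5 window and 4 times in that of SLC25A6, and not in that of SLC25A4. In VDAC1 they occurred 2 times in window A, not in window B, and 4 times and 1 time in the remaining windows. In VDAC2 they occurred 2 times in 1 of the 2 windows. A match of letters is a description and was not tied to any difference between the lines.

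VDAC1 was read by 1 probe. Its normalized intensity was 9112 ± 2408 in NFAT1-shRNA cells, against 35678 ± 11236 in NT-shRNA cells. The intensity and error ranges of the lines did not overlap, and the gap between them was 2.31 times the error propagated from both. The authors' deposited table put its log2 ratio at -2.41 (interval -3.58 to -1.25, p 0.000126, adjusted p 0.00388). This was the 4th largest fall among the 399 genes called lower. By p-value, in contrast, it stood at rank 308 of the 718 genes called in either direction.

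**Figure D1:**
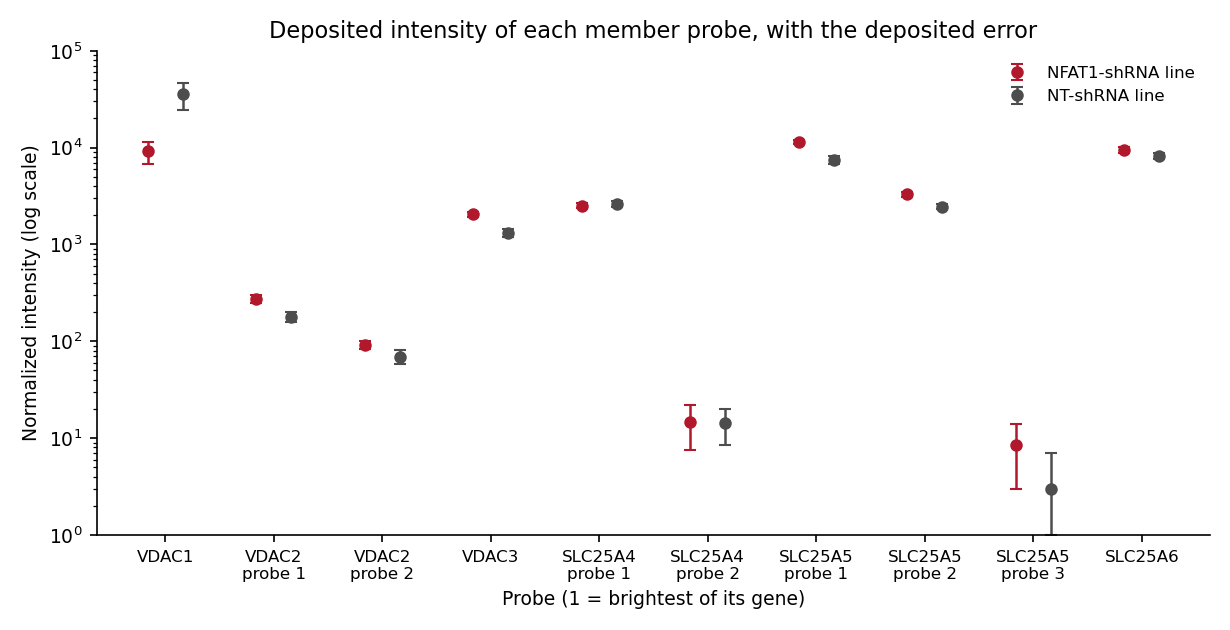
Normalized intensity (log axis) of the 10 probes of the VDACs and adenine nucleotide carriers in NFAT1-shRNA cells (red, left of each pair) and NT-shRNA cells (grey, right), with bars for the deposited error. VDAC1 sits at 9112 against 35678, and the brighter probes of VDAC2, VDAC3 and SLC25A5 sit higher in the NFAT1-shRNA line before centring. The lower bar of the dimmest SLC25A5 probe in the NT-shRNA line is cut at the edge of the axis, since its error exceeds its intensity.

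The precision of the VDAC1 value differed from that of other bright probes. Its error in the NT-shRNA line was the largest of all 29187 probes in that line, ahead of GLIPR1 with 9759 (named after its values were seen), while its intensity there stood at rank 19. In the NFAT1-shRNA line its error stood at rank 25 and its intensity at rank 258. As a share of the signal the errors were 26.4% and 31.5% in NFAT1-shRNA and NT-shRNA cells. Over the 169 probes within 2-fold of its mean intensity, the median relative errors were 5.65% in NFAT1-shRNA cells, against 7.04% in NT-shRNA cells. Of these probes 1, GLIPR1, had a larger relative error in either line, with 73.1% and 73.3%, and the next below VDAC1 had 9.67% and 21.1%. VDAC1 was detected in both lines, but with detection p-values of 8.46e-05 in NFAT1-shRNA cells, against 0.000759 in NT-shRNA cells, each exceeded by 1 of the 169 probes, that of GLIPR1, which was not detected in either line. What gave rise to the error was not tested, since the table holds no value per array.

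**Figure D2:**
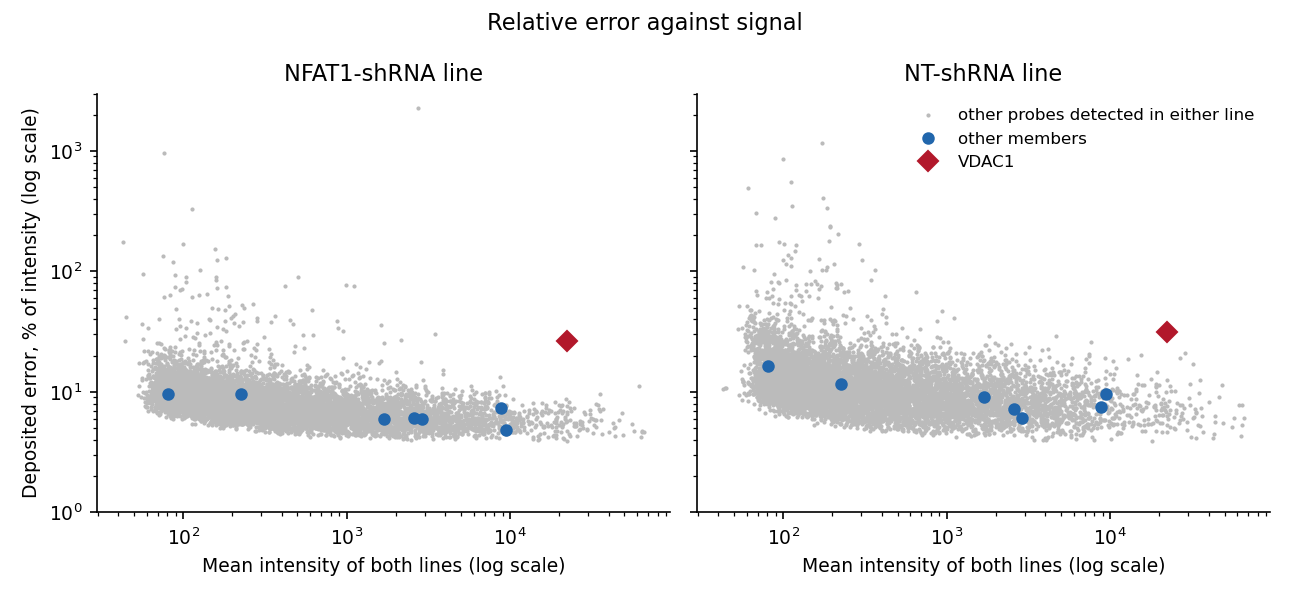
Deposited error as a percentage of intensity (log axis) against the mean intensity of both lines (log axis), for the NFAT1-shRNA line on the left and the NT-shRNA line on the right, over probes detected in either line, which leaves out that of GLIPR1. VDAC1 (red diamond, 26.4% and 31.5%) sits above the cloud of bright probes in both panels, and the other member probes (blue) lie within it.

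The ratio of VDAC1 in the authors' deposited table was also further below the plain quotient of the intensities than for any other probe of like signal. The plain log2 quotient was -1.97, so the offset of the authors' ratio from it was -0.44, where the median offset over the 169 probes was -0.13 and none had a lower offset. Centred on the median quotient of those probes, an alternative chosen after seeing the data, the VDAC1 value was -2.11. Its direction held on each scale tried, with the value between -2.41 and -1.97, and its call on each scale that carried a test. These scales share the same deposited intensities and errors, so they add no support for the fall. Among the 151 genes of like signal with a ratio, 10 were called, 5 of them lower, and after VDAC1 the lowest log2 ratio was -0.67 in the authors' deposited table.

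The genes called next to VDAC1 in the order of ratios, among those detected in both lines, were PLAC8 and FLT1 on the lower side and PAPSS2 and TMEM45A on the other. Their log2 ratios in the authors' deposited table were -2.70, -2.59, -2.22 and -2.06. Their relative errors in the NFAT1-shRNA line lay between 7.04% for PAPSS2 and 9.69% for PLAC8, against 26.4% for VDAC1. In the NT-shRNA line they lay between 4.81% for PLAC8 and 14.2% for PAPSS2, against 31.5% for VDAC1. All 4 were dimmer than VDAC1, with intensities from 101.0 for FLT1 in NFAT1-shRNA cells to 1753 for TMEM45A in NT-shRNA cells. With 1 value per line, likeness here means only a ratio of similar size.

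VDAC2 had 2 probes with a ratio. The brighter read 271.9 ± 26.3 in NFAT1-shRNA cells, against 178.5 ± 20.7 in NT-shRNA cells, for which the authors' deposited table gave a ratio of 0.24 (log2, interval -0.19 to 0.67, adjusted p 0.563). The other read 92.0 ± 8.83 in NFAT1-shRNA cells, against 69.1 ± 11.3 in NT-shRNA cells, where it was not detected, and its ratio in the authors' deposited table was 0.07. Both probes thus read higher in the NFAT1-shRNA line before centring and neither passed. The brighter probe is annotated to 3 Ensembl gene identifiers and the dimmer to 1. What the further identifiers stand for was not examined, so any signal from other loci on the brighter probe cannot be told apart from VDAC2.

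VDAC3 was read by 1 probe, at 2043 ± 122 in the NFAT1-shRNA line, against 1326 ± 121 in the NT-shRNA line. The ranges did not overlap before centring, where the median gene read 1.23-fold higher in the NFAT1-shRNA line. By the authors' deposited table the log2 ratio was 0.35 (interval 0.04 to 0.66, p 0.0295, adjusted p 0.192), so it did not pass.

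Beside its relatives, VDAC1 had the lower log2 ratio, as the choice of the set fixes. The difference was -2.66 from VDAC2 (interval -3.89 to -1.42) and -2.76 from VDAC3 (interval -3.97 to -1.56), while VDAC2 minus VDAC3 was -0.11 (interval -0.64 to 0.42). These intervals come from the deposited errors, and no p is given because VDAC1 was chosen for its ratio. RefSeq lists 13 pseudogenes named after VDAC1, 5 after VDAC2 and 1 after VDAC3. The VDAC1 probe is annotated to 1 Ensembl gene with 3 transcripts, and whether it also binds transcripts of copies was not tested.

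Among the nucleotide carriers no member passed. SLC25A4, the muscle form, read 2519 ± 153 in NFAT1-shRNA cells, against 2630 ± 190 in NT-shRNA cells on its brighter probe. The raw intensities overlapped within their errors, and the negative ratio of -0.31 in the authors' deposited table (interval -0.57 to -0.04, adjusted p 0.0639) is relative to the higher signal of the median gene in the NFAT1-shRNA line. On the plain quotient it was -0.06. The second SLC25A4 probe read 14.8 and 14.2 in NFAT1-shRNA and NT-shRNA cells, was detected in neither and has no ratio.

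SLC25A5, the form of proliferating cells, had 3 probes. The brightest read 11333 ± 544 in NFAT1-shRNA cells, against 7449 ± 723 in NT-shRNA cells, for which the authors' deposited table had 0.40 (log2, interval 0.10 to 0.71, adjusted p 0.0786). The next read 3285 ± 194 in NFAT1-shRNA cells, against 2452 ± 150 in NT-shRNA cells, with a ratio of 0.18 (interval -0.06 to 0.42) in the authors' deposited table. On both, the ranges of the lines did not overlap before centring and the NFAT1-shRNA line read higher, although the gene did not pass. The median gene also read 1.23-fold higher in that line. Ranges without overlap were likewise seen for SLC25A6, whose ratio was near 0, and for both VDAC2 probes. The dimmest probe, annotated to 5 Ensembl genes, read 8.40 and 2.98 in NFAT1-shRNA and NT-shRNA cells and was detected in neither.

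SLC25A6 was read by 1 probe, at 9478 ± 702 in NFAT1-shRNA cells, against 8150 ± 611 in NT-shRNA cells. The authors' deposited table put its log2 ratio near 0 (0.0026, interval -0.30 to 0.30), and it turned to -0.085 with the quotient centred on all genes, to -0.014 after an offset of 50 and to -0.0039 when centred on probes of like signal, so it has no settled sign. The carriers differed among themselves in 1 of 3 pairs. SLC25A4 minus SLC25A5 was -0.71 (interval -1.12 to -0.31), while SLC25A4 minus SLC25A6 was -0.31 (interval -0.71 to 0.09) and SLC25A5 minus SLC25A6 was 0.40 (interval -0.03 to 0.83). A constant shift between the lines cancels in these differences, and on the plain quotients the first was -0.67.

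**Figure D3:**
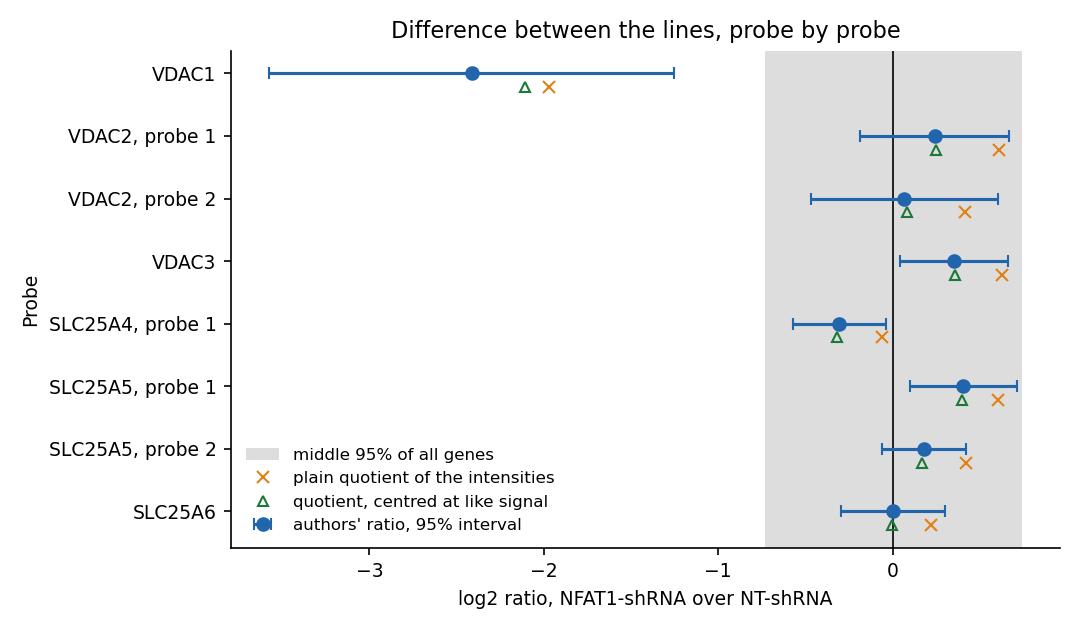
Log2 ratio of NFAT1-shRNA over NT-shRNA for the 8 member probes with a ratio in the authors' deposited table (blue points, bars for the 95% interval from the deposited errors), beside the plain quotient of the intensities (crosses) and the quotient centred at like signal (triangles), with the middle 95% of all genes from -0.73 to 0.74 shaded. VDAC1 lies at -2.41, outside the band, and the other 7 probes lie inside it between -0.31 and 0.40.

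Across the errors of the other members, no departure of the VDAC1 kind was seen. Their relative errors, on the 7 other probes with a ratio, ran from 4.80% for the brightest SLC25A5 probe to 9.67% for the brighter VDAC2 probe in the NFAT1-shRNA line, and from 6.13% for the second SLC25A5 probe to 16.4% for the dimmer VDAC2 probe in the NT-shRNA line. Against probes of like signal the highest standing was percentile 80.3, for SLC25A6 in the NFAT1-shRNA line, where VDAC1 stood at 98.8 in both lines.

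A list of 13 partner genes of the VDACs and carriers held hexokinases, TSPO, cyclophilin D, creatine kinases and adenylate kinases. Of the 7 with a ratio, none was called, with 1 lower and 1 higher at an unadjusted p under 0.05, and the list's median log2 ratio was -0.15. Hexokinases HK1 and HK2, which bind mitochondria through VDAC1, had log2 ratios of 0.13 (interval -0.20 to 0.47) and -0.15 (interval -0.50 to 0.20) in the authors' deposited table. TSPO, the translocator protein of the outer membrane, stood at -0.36 (adjusted p 0.171), and PPIF (cyclophilin D), which regulates the permeability transition pore, at 0.38 (adjusted p 0.102), where both ratios come from the authors' deposited table. The phosphate carrier SLC25A3, which supplies ATP synthase together with the nucleotide carriers, read 14640 ± 804 in NFAT1-shRNA cells, against 12720 ± 665 in NT-shRNA cells, a ratio of 0.04 in the authors' deposited table. SLC25A31 (ANT4), the nucleotide carrier of the testis, had -0.11 there with intensities of 159.6 and 134.4 in NFAT1-shRNA and NT-shRNA cells.

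Of 26 other carriers of the SLC25 family with a ratio, SLC25A1 was lower and none was higher (3.85% called, against 7.55% of all genes). SLC25A1, the citrate carrier, read 55.2 in the NFAT1-shRNA line, where it was not detected, against 112.5 in the NT-shRNA line. Set against the lowest detected signal of 78.3 in the NFAT1-shRNA line, NT-shRNA cells held at least 1.77-fold more signal once the median shift between the lines was removed (adjusted p 0.000101). None of 17 ATP synthase genes was called, with 1 higher at an unadjusted p under 0.05. Their median was 0.12 by the authors' ratio and -0.0053 with the quotient centred on all genes, so it has no settled sign.

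In the outer membrane, where the VDACs lie, none of 12 genes of protein import and assembly was called, with 1 lower and 1 higher at an unadjusted p under 0.05. Among 20 other outer membrane genes 2 were lower and none higher (10.0% called, against 7.55% of all genes). In the authors' deposited table ACSL1, which activates long-chain fatty acids, stood at -0.75 and the iron-sulphur protein CISD1 at -0.28 (adjusted p 0.0494). The CISD1 intensities overlapped within their errors, at 3621 ± 170 in NFAT1-shRNA cells, against 3732 ± 251 in NT-shRNA cells, and its plain quotient was -0.04. None of 15 genes of inner membrane import was called, with 2 lower and 1 higher at an unadjusted p under 0.05.

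Of 12 BCL2 family genes 2 were lower and none higher (16.7% called, against 7.55% of all genes). In a list this short 1 gene moves the share much, and no list was tested as a set. BNIP3, a mitochondrial protein induced by hypoxia that also serves mitophagy, read 422.2 ± 35.8 in NFAT1-shRNA cells, against 854.6 ± 109 in NT-shRNA cells, and the authors' deposited table gave it -1.31. BIK, a BH3-only protein, had -0.63 there. Of 12 mitophagy genes 2 were lower (16.7% called), BNIP3 again and the ubiquitin protease USP15. USP15 read 82.8 in NFAT1-shRNA cells, where it was not detected, against 115.9 in NT-shRNA cells. That undetected signal is above the lowest detected one, so no bound is set from it. With the median shift between the lines of 1.23-fold removed, NT-shRNA cells held 1.73-fold more signal. The authors' deposited table gave USP15 a log2 ratio of -0.79 (interval -1.16 to -0.42). Of 10 genes of mitochondrial calcium uptake and contacts with the endoplasmic reticulum, 1 was lower and 1 higher, and ITPR3, a calcium release channel linked to VDAC1, was the lower one at -0.63 in the authors' deposited table.

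None of 7 regulators of mitochondrial gene expression was called, with 2 higher at an unadjusted p under 0.05. Their ratios ran from -0.40 to 0.67 with a median of 0.40. Among 14 matrix and inner membrane enzymes 2 were lower, MDH2 at -0.41 (plain quotient -0.15) and DLD at -0.67 in the authors' deposited table, but the second DLD probe had 0.33. Over all these lists, 9 of 149 genes with a ratio were lower and 1 higher, which is 6.71% called against 7.55% of all genes, with a median of -0.02 for both. Among the genes of these lists that were called and detected in both lines, BNIP3 had the lowest ratio.

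**Figure D4:**
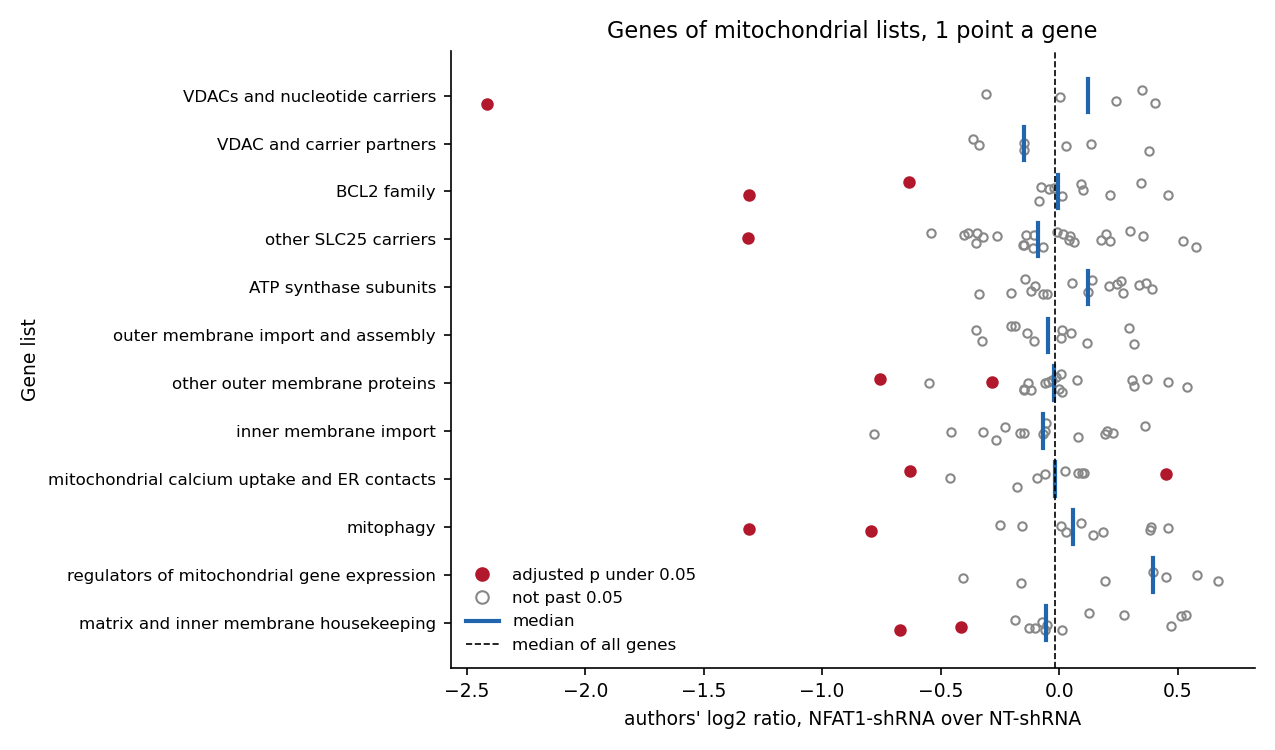
The authors' log2 ratio of NFAT1-shRNA over NT-shRNA for each gene with a ratio (points) in 12 lists, with the list's median (blue bar), the median of all genes (dashed line) and genes with an adjusted p under 0.05 filled red. VDAC1 at -2.41 is the leftmost point, and BNIP3 (shown in 2 lists) lies at -1.31 beside SLC25A1, also at -1.31. NFAT1-shRNA cells gave no detected signal for SLC25A1.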

How the data were processed

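Total RNA of both lines, with RNA integrity numbers between 9.3 and 9.9, was amplified and labelled with Cy5 per the labels' protocols. The array maker is not stated consistently there. The table as deposited by the authors holds, per the file headers, a detection p-value, a normalized intensity on a linear scale and an error in the same unit for each probe and line, the authors' log2 ratio and the authors' p-value for it. The normalization, the way replicates were combined, the kind of error and the method behind the p-values are not stated by any source used here. The number of arrays limits the precision.

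The brightest probe over both lines stood for a gene. Symbols were updated by Entrez number through a RefSeq table of GRCh38.p14 (25400 of 25650 probes matched). Authors' p-values were adjusted with statsmodels 0.14.6. Intervals take the error propagated from both deposited errors as a normal standard error (1.96 on each side). The SLC25A1 value set against the lowest detected signal removes the 1.23-fold median shift between the lines. The propagated error and the adjustment were run on simulated data with noise drawn from the deposited errors. That run did not test the authors' ratios or p-values, nor whether the deposited errors are of the right size. Promoter windows came from RefSeq. Those of VDAC3 were not used, so windows of 5 members are printed or counted here. The plan, written with earlier results of these data known, set the members, lists, named genes and alternatives. The named genes were all members, up to 4 called genes per list, 7 further genes (NFATC2 among them) and the neighbours of VDAC1 in ratio. Gene levels were not compared between probes. The values of 1 called gene of the calcium list are not reported here.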

Additional observations from a re-analysis of the deposited data

How the results depend on the processing

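No paired analysis was possible because each line has 1 combined value. VDAC1 stayed the 1 member called lower under all 8 alternatives of scale, p-value, probe choice, filter and threshold. The set was chosen for this fall, and every alternative reuses the same deposited values of its 1 probe. The stability was therefore largely fixed in advance and adds no support. Without centring, the plain quotient called 3 members higher (VDAC2, VDAC3 and SLC25A5) where the authors' ratio called 0, and 2278 genes in all, 93.5% of them higher in the NFAT1-shRNA line against 44.4% of the 718 by the authors' ratio. The other scale and p-value alternatives called between 813 genes (37.8% higher, with the propagated error) and 922 (39.9% higher), and 909 (50.5% higher) after an offset of 50. An adjusted p under 0.01 called 423 genes. SLC25A6 changed sign, to -0.085 with the quotient centred on all genes, -0.014 after an offset of 50 and -0.0039 at like signal. Of 36 list medians under alternatives, 3 moved by more than their propagated error, among them that of the other SLC25 carriers, -0.09 by the authors' ratio and 0.03 over genes detected in both lines. The relative error's percentile moved by at most 4.62 points with probes within 1.5-fold. The deposited errors set the limit: VDAC1 rests on 1 probe, and no value per array could be left out.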

Other observations

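Across the 718 called genes the median error propagated to the log2 ratio was 0.17, and VDAC1, at 0.59, stood at rank 10 from the largest. Among the 151 genes of its own signal range the median was 0.13. The error implied by the authors' p-value for VDAC1 was 0.63, close in size to the propagated 0.59. For SLC25A4 the implied error was 0.11 against 0.14 propagated, and its adjusted p of 0.0639 rests on the smaller one.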
